A study of Mus musculus with 8 samples.

Results

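The 10 genes described here serve haem breakdown and the handling of the iron it frees: Hmox1, Blvrb, Slc48a1, Fth1, Ftl1, Slc40a1, Cp, Tfrc, Slc11a1 and Slc11a2. They were chosen by name, as all probes whose transcript maps to one of these symbols, and they make up 10 of the 22460 genes tested. The list was made with earlier results of these data known, so counts set against all genes are only descriptive. The cells were BV-2, an immortalised mouse microglial line that stands in for the brain's resident macrophages. A pair of arrays came from each of 4 groups: cells given lipopolysaccharide (LPS, the bacterial outer-membrane component sensed by Toll-like receptor 4) at 1 µg/mL together with HF, a fraction extracted with hexane from the mushroom Amauroderma rugosum, at 100 µg/mL, cells given LPS alone, cells given HF alone, and untreated control cells. All groups were kept for 24 h. The labels number the samples of a group 1 and 2 without saying whether they were separate cultures, so p-values measure the spread between these samples, which may be technical.

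Haem oxygenase 1 opens the haem ring and releases iron, carbon monoxide and biliverdin, which biliverdin reductases convert to bilirubin. The freed iron is stored in ferritin or leaves the cell through ferroportin, with a ferroxidase such as ceruloplasmin helping it onto transferrin, while the transferrin receptor and divalent metal transporters bring iron in. Macrophages recycle haem from engulfed red cells and hold iron back during inflammation, and microglia carry the same machinery. Ferritin, ferroportin and the transferrin receptor are also controlled after transcription by iron-regulatory proteins, which an array of transcripts does not measure.

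A level here is the log2 of the background-subtracted signal minus the log2 of that array's 75th percentile, so 0 means a signal at the 75th percentile, and levels are compared only within a probe. All 10 genes were well above background on all 8 arrays. There was 1 slide and 1 scan. The arrays with HF filled slide row 2 and had 75th percentiles of 347 to 527 intensity units, against 247 to 286 for the arrays without HF in row 1. The LPS arrays filled columns 3 and 4, so slide position and treatment cannot be told apart. The scanner's quality report marked control replicate 1 and HF replicate 1 for evaluation. Control replicate 1 was uneven, with 13.1% of its spots masked in a spatial correction of each array, and the SD of the difference between replicates over genes was 0.34 in LPS+HF, 0.28 in LPS, 0.52 in HF and 0.99 in control cells. Of 8 microglia and macrophage markers, 8 were above background on every array. Of 3 markers of resting microglia, only Tmem119 was. No erythroid marker was above background on every array, and Alas2 was on none. The oligodendrocyte markers Mog, Mbp and Mag were above background on every array, with a summed level (log2) of 0.10 to 0.11 in LPS+HF cells, 0.50 to 0.56 in LPS cells, 0.16 to 0.73 in HF cells and 0.40 to 1.28 in control cells. The part of these markers in the results below was not tested.

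Promoter windows of 6 of the 10 genes were in the RefSeq table (build GRCm38.p6), with none for Hmox1, Slc40a1, Slc11a2 and Slc48a1. Those of Tfrc and Cp are shown as examples, because both genes rose with LPS and their windows hold a searched motif, marked in capitals. Each is 1 of 2 windows of its gene and runs from 250 bases before the listed start to 20 bases after it, 5′ to 3′ on the plus strand, at chr16:32608646-32608915 for Tfrc and at chr3:19956804-19957073 for Cp.
Tfrc: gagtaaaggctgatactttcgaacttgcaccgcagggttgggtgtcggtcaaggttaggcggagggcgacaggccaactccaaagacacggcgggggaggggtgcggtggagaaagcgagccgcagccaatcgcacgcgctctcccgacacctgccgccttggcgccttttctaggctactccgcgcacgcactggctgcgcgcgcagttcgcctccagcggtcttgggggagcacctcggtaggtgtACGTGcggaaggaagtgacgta
Cp: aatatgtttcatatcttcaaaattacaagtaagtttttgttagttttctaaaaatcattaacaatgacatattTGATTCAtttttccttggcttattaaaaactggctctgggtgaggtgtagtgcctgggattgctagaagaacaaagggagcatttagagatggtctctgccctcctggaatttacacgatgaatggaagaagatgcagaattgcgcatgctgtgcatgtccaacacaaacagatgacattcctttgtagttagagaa

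The capitals in the Tfrc window are ACGTG, the core of a hypoxia response element, which spans the listed start. On either strand it occurred in 17.9% of 32851 windows of this length over all genes. It was in 3 of the 10 windows of the 6 genes, from 2 genes, Blvrb and Tfrc. In the Cp window the capitals mark a match to TGANTCA, a pattern searched for AP-1 sites with any middle base. It reads the same on both strands apart from that base and was found in 7.23% of all windows. The match here is TGATTCA, and whether it works as an AP-1 site was not tested. TATAAA, the core promoter motif bound by the TATA-binding protein, occurred in windows of Cp and Fth1 and in 12.9% of all windows. The antioxidant response element core TGACNNNGC was in none of the windows of the 6 genes, which do not include Hmox1, and in 11.1% of all windows. A match is only the presence of these letters.

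Most of the genes were higher on the LPS arrays than on the control arrays. Of the 10, 8 were higher and 0 lower in LPS than in control cells (adjusted p under 0.05 over all genes tested, limma), where 11.1% of all genes passed and 4.77% passed as higher. The median log2 difference was 1.29 over the 10 genes and -0.08 over all genes. In LPS+HF against LPS cells, 3 of the 10 passed, with Slc11a2 higher and Hmox1 and Cp lower, where 6.14% of all genes passed, 2.89% as higher and 3.25% as lower. The median was -0.58 over the 10 genes and -0.07 over all genes. With HF present throughout, LPS+HF against HF cells gave 3 higher and 0 lower (Blvrb, Tfrc and Slc11a2), where 1.28% of all genes passed and 0.904% passed as higher. The same 3 genes were higher and none lower in LPS+HF than in control cells, where 5.05% of all genes passed and 1.89% passed as higher. HF alone against control cells gave 0 of 10 in limma, where 0.89% of all genes passed, and 1 of 10 at an unadjusted p under 0.05, which 19.6% of all genes reached. These comparisons share arrays with each other.

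**Figure D1:**
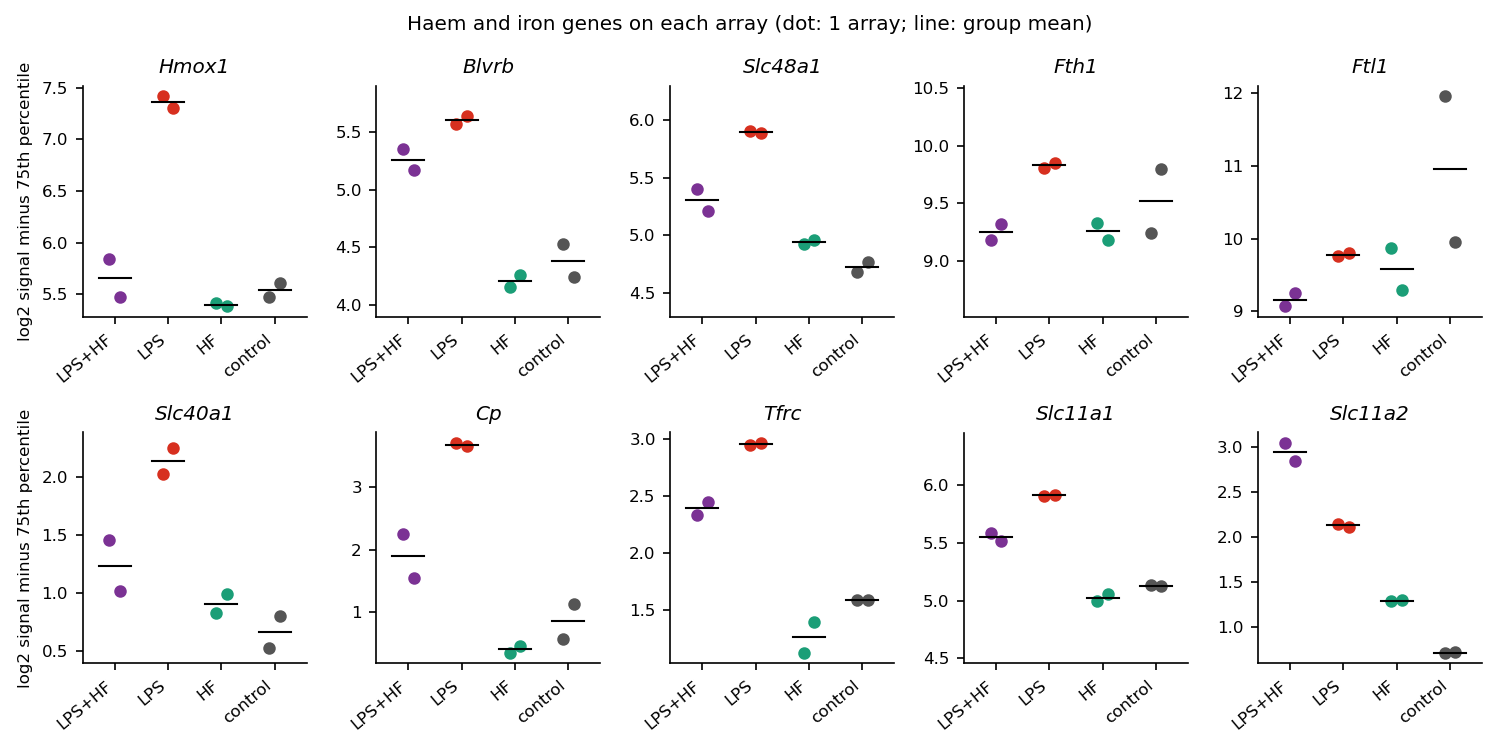
Level of each gene on each array (log2 signal minus the array's 75th percentile, vertical axes of different ranges) in the 4 groups; dots are arrays and lines are group means. Both LPS arrays stand above both control arrays for all genes except Ftl1, though the Fth1 difference did not pass, and LPS+HF cells lie below LPS cells for all except Slc11a2.

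Those counts changed with the arrays that were fitted and with the spatial correction. The 8 rises with LPS became 0 of 10 without either LPS array, where 0.784% and 0.752% of all genes passed and the spread of the lone LPS array was taken from the other groups. It was 0 of 10 when only the LPS and control arrays were fitted, where 0.294% of all genes passed. With the spatial correction, which left 20299 genes to test, the count was 8 of 10, where 30% of those genes passed. For LPS+HF against LPS cells the count was 9 of 10 when only those 4 arrays were fitted (1 higher and 8 lower, where 32.9% of all genes passed), all but Blvrb. It was 9 of 10 with the spatial correction, all but Ftl1 (28.9% of the 20299 genes tested there). It was 8 of 10 without control replicate 1 or control replicate 2 (29.1% of all genes each time) and 1 of 10 without either HF array (1.35%). It was 0 of 10 without LPS+HF replicate 1 (0.232%), without LPS+HF replicate 2 (0.0312%) and without either LPS array (0%).

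Hmox1 encodes haem oxygenase 1, the inducible enzyme that opens the haem ring. Its level was 5.84 and 5.47 in LPS+HF cells, 7.42 and 7.30 in LPS cells, 5.41 and 5.38 in HF cells, and 5.47 and 5.61 in control cells. Both LPS arrays stood apart from the other 6, which lay between 5.38 and 5.84. Hmox1 was 3.53-fold higher in LPS than in control cells (log2 difference 1.82 ± 0.17 SE, adjusted p = 0.00415). In LPS+HF against LPS cells it was 3.26-fold lower (-1.71 ± 0.17, adjusted p = 0.0111). This difference passed in no fit that left out an LPS or LPS+HF array, where it ranged from -1.89 to -1.52. Leaving out a control or HF array does not change the difference itself, so the calls made there do not test its stability. Against control cells, LPS+HF cells differed by 0.11 ± 0.17 (adjusted p = 0.665), and a second, dimmer probe of the same transcript gave -0.19. That probe otherwise went the same way, at 1.82 ± 0.15 for LPS minus control (adjusted p = 0.00351) and -2.01 ± 0.15 for LPS+HF minus LPS (adjusted p = 0.00706).

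Blvrb encodes biliverdin reductase B, which also reduces flavins. Its level was 5.35 and 5.17 in LPS+HF cells, 5.57 and 5.64 in LPS cells, 4.16 and 4.26 in HF cells, and 4.53 and 4.24 in control cells. The arrays with LPS and those without it did not overlap. Blvrb was 2.32-fold higher in LPS than in control cells (1.22 ± 0.16, adjusted p = 0.0101) and 2.07-fold higher in LPS+HF than in HF cells (1.05 ± 0.16, adjusted p = 0.0476). The second value lost its call without both marked arrays (adjusted p = 0.0506). In LPS+HF against LPS cells the difference was -0.34 ± 0.16 (adjusted p = 0.267).

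Slc48a1 encodes the haem transporter that moves haem out of the phagolysosome. It had levels of 5.40 and 5.21 in LPS+HF cells, 5.90 and 5.89 in LPS cells, 4.93 and 4.96 in HF cells, and 4.68 and 4.76 in control cells. Each group was separate from the next, in the order LPS, LPS+HF, HF and control. It was 2.25-fold higher in LPS than in control cells (1.17 ± 0.14, adjusted p = 0.00718). LPS+HF minus LPS was -0.59 ± 0.14 (adjusted p = 0.0622), and -0.48 ± 0.12 with the spatial correction (adjusted p = 0.0284).

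The ferritin subunits gave no call with LPS. Fth1, the heavy chain that oxidises iron as it enters the shell, had levels of 9.18 and 9.32 in LPS+HF cells, 9.81 and 9.85 in LPS cells, 9.33 and 9.18 in HF cells, and 9.24 and 9.80 in control cells. LPS minus control was 0.31 ± 0.21 (adjusted p = 0.355) and 0.03 without both marked arrays. LPS+HF minus LPS was -0.58 ± 0.21 (adjusted p = 0.169), with all 4 arrays separate, and passed with the spatial correction (-0.57 ± 0.12, adjusted p = 0.0156). For LPS+HF minus HF, at -0.01 ± 0.21, the sign turned under quantile normalization and under median scaling.

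Ftl1, the light chain that helps iron settle in the shell, was measured by 2 probes that disagreed on control replicate 1. The brighter probe gave 9.07 and 9.25 in LPS+HF cells, 9.76 and 9.80 in LPS cells, 9.87 and 9.29 in HF cells, and 11.96 and 9.95 in control cells. The other gave 8.62 and 8.58 in LPS+HF cells, 9.09 and 9.07 in LPS cells, 8.88 and 8.57 in HF cells, and 7.37 and 8.67 in control cells. On the uneven control array the brighter probe was thus high and the other low, and the other probe's spot there was masked in the spatial correction. LPS minus control was -1.18 ± 0.61 with the first probe (adjusted p = 0.252) and 1.06 ± 0.40 with the second (adjusted p = 0.148). Both probes put LPS+HF below LPS cells, by -0.62 ± 0.61 (adjusted p = 0.610) and -0.48 ± 0.40 (adjusted p = 0.533), with both LPS+HF arrays below both LPS arrays in each.

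Slc40a1 encodes ferroportin, the iron exporter. Its level was 1.46 and 1.01 in LPS+HF cells, 2.03 and 2.26 in LPS cells, 0.82 and 0.99 in HF cells, and 0.52 and 0.80 in control cells. The LPS arrays were highest, and LPS+HF replicate 2 at 1.01 was next to HF replicate 2 at 0.99. Slc40a1 was 2.80-fold higher in LPS than in control cells (1.48 ± 0.21, adjusted p = 0.0124). With HF added to LPS the difference was -0.91 ± 0.21 (adjusted p = 0.0620), and -0.91 ± 0.19 with the spatial correction (adjusted p = 0.0158). LPS+HF minus HF was 0.33 ± 0.21 (adjusted p = 0.796).

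Cp encodes ceruloplasmin, a copper ferroxidase that partners ferroportin. Its level was 2.25 and 1.54 in LPS+HF cells, 3.70 and 3.66 in LPS cells, 0.35 and 0.46 in HF cells, and 0.58 and 1.12 in control cells. LPS cells were highest and LPS+HF cells next, with no overlap. Cp was 7.11-fold higher in LPS than in control cells (2.83 ± 0.29, adjusted p = 0.00504), and 3.45-fold lower in LPS+HF than in LPS cells (-1.79 ± 0.29, adjusted p = 0.0278). The second call was lost in every fit that left out an LPS or LPS+HF array, with a range of -2.14 to -1.43. Of the 8 fits that left out 1 array each it held only in the 2 without a control array. Those 2 leave the difference itself unchanged and do not test its stability. A probe of another transcript of Cp was well above background only on both LPS arrays. It was kept through that group alone, so its differences give no separate support. It was at least 2.03-fold lower in LPS+HF than in LPS cells and at least 1.89-fold higher in LPS than in control cells. Each bound is set against the higher of the dim probe's own signal and the weakest above-background probe signal on that array.

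Tfrc encodes transferrin receptor 1, through which cells take up transferrin-bound iron. It was measured by 10 spots of 1 probe and by 2 further probes. The repeated probe gave 2.33 and 2.44 in LPS+HF cells, 2.94 and 2.96 in LPS cells, 1.12 and 1.40 in HF cells, and 1.58 and 1.59 in control cells. All 4 groups were separate. The SD over its spots was 0.04 and 0.05 in LPS+HF cells, 0.04 and 0.05 in LPS cells, 0.11 and 0.05 in HF cells, and 0.63 and 0.04 in control cells, where the wide value is control replicate 1. Tfrc was 2.58-fold higher in LPS than in control cells (1.37 ± 0.15, adjusted p = 0.00599), 2.19-fold higher in LPS+HF than in HF cells (1.13 ± 0.15, adjusted p = 0.0276) and 1.74-fold higher in LPS+HF than in control cells (0.80 ± 0.15, adjusted p = 0.0421). Of the 2 further probes, the second listed here was not well above background on control replicate 1, where its spot was masked in the spatial correction. Both also passed as higher in LPS than in control cells, at 0.98 ± 0.18 (adjusted p = 0.0260) and 1.01 ± 0.22 (adjusted p = 0.0378). They did not pass in LPS+HF minus HF, at 0.60 ± 0.18 (adjusted p = 0.324) and 0.73 ± 0.22 (adjusted p = 0.311), or in LPS+HF minus control, at 0.07 ± 0.18 (adjusted p = 0.799) and 0.66 ± 0.22 (adjusted p = 0.128). LPS+HF minus LPS was -0.56 ± 0.15 with the repeated probe (adjusted p = 0.0836), while the further probes gave -0.91 ± 0.18, which passed (adjusted p = 0.0431), and -0.36 ± 0.22, which did not (adjusted p = 0.381).

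Slc11a1 encodes NRAMP1, which pumps metal ions out of the phagosome. Its level was 5.59 and 5.52 in LPS+HF cells, 5.91 and 5.92 in LPS cells, 4.99 and 5.06 in HF cells, and 5.14 and 5.12 in control cells. All 4 groups were separate. It was 1.72-fold higher in LPS than in control cells (0.78 ± 0.13, adjusted p = 0.0173), a call that held in 2 of 8 fits that left out 1 array each, those without a control array. The difference between LPS+HF and LPS cells was -0.36 ± 0.13 (adjusted p = 0.154).

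Slc11a2 encodes divalent metal transporter 1, which carries ferrous iron into the cytosol. Its brighter probe gave 3.04 and 2.84 in LPS+HF cells, 2.14 and 2.11 in LPS cells, 1.29 and 1.30 in HF cells, and 0.72 and 0.72 in control cells. On this probe the 4 groups were separate and LPS+HF cells were highest, unlike the other 9 genes. It was 1.76-fold higher in LPS+HF than in LPS cells (0.82 ± 0.13, adjusted p = 0.0296), 4.67-fold higher in LPS+HF than in control cells (2.22 ± 0.13, adjusted p = 0.00193), 3.13-fold higher in LPS+HF than in HF cells (1.65 ± 0.13, adjusted p = 0.00552) and 2.65-fold higher in LPS than in control cells (1.41 ± 0.13, adjusted p = 0.00442). HF minus control was 0.58 ± 0.13 (adjusted p = 0.129), and passed with the spatial correction (0.54 ± 0.09, adjusted p = 0.0217).

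A second Slc11a2 probe of the same listed transcript went the other way in LPS+HF against LPS cells. It gave 0.15 and 0.34 in LPS+HF cells, 0.78 and 0.67 in LPS cells, -0.08 and -0.17 in HF cells, and 0.40 and -0.23 in control cells. LPS+HF minus LPS was -0.48 ± 0.23 (adjusted p = 0.270) on this probe, and -0.46 ± 0.10 with the spatial correction (adjusted p = 0.0226). Its LPS minus control was 0.64 ± 0.23 (adjusted p = 0.132), its LPS+HF minus HF 0.37 ± 0.23 (adjusted p = 0.787) and its LPS+HF minus control 0.16 ± 0.23 (adjusted p = 0.661), so without that correction none of the calls of the brighter probe was made on it. With the correction it passed as higher in LPS minus control (0.98 ± 0.10, adjusted p = 0.00182) and in LPS+HF minus control (0.51 ± 0.10, adjusted p = 0.0208). LPS+HF minus HF still did not pass on it (0.41 ± 0.10, adjusted p = 0.103). The LPS+HF minus LPS changes of the probes differed by 1.30 (exact two-sided permutation p = 0.333, the smallest that pairs of arrays allow). Both probes were above background on all 8 arrays, and which of them follows the gene's total transcript was not tested.

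**Figure D2:**
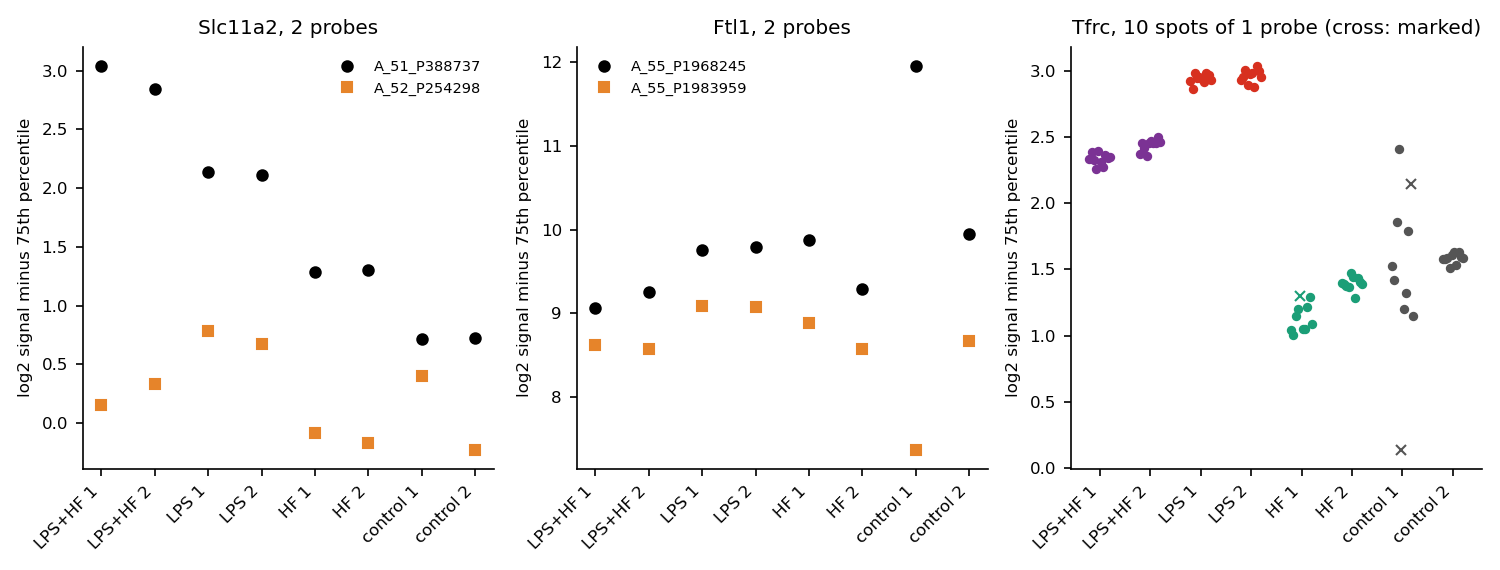
Level on each array (log2 signal minus the array's 75th percentile) of the 2 probes of Slc11a2, the 2 probes of Ftl1 and the 10 spots of 1 Tfrc probe, with arrays along the horizontal axis. In LPS+HF against LPS cells one Slc11a2 probe changed by 0.82 and the other by -0.48, the Ftl1 probes turn opposite ways on control replicate 1, and the Tfrc spots scatter there with an SD of 0.63.

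The response to LPS could be set side by side on arrays that do not overlap: LPS+HF minus HF with the fraction, and LPS minus control without it. The difference between these 2 responses is the interaction, which 0 of the 10 genes passed in limma, where 0.0534% of all genes passed, and which 4 reached at an unadjusted p under 0.05, as did 11.6% of all genes. Those 4 were Hmox1, Slc40a1, Cp and Slc48a1. For Hmox1 the LPS response was 0.26 ± 0.17 with HF and 1.82 ± 0.17 without it, an interaction of -1.56 ± 0.24 (adjusted p = 0.143). With the spatial correction it was -1.52 ± 0.20 and passed (adjusted p = 0.0238). Slc40a1 responded by 0.33 ± 0.21 with HF and 1.48 ± 0.21 without (interaction -1.16 ± 0.30, adjusted p = 0.265). For Cp the responses were 1.49 ± 0.29 with HF and 2.83 ± 0.29 without (interaction -1.34 ± 0.41, adjusted p = 0.323), and for Slc48a1 they were 0.36 ± 0.14 with HF and 1.17 ± 0.14 without (interaction -0.81 ± 0.19, adjusted p = 0.238). The responses of Blvrb, Tfrc, Slc11a1 and Slc11a2 differed by -0.25 to 0.24, with Slc11a2 taken from its brighter probe. The second Slc11a2 probe gave an interaction of -0.27 ± 0.32 (adjusted p = 0.737), and -0.57 ± 0.15 with the spatial correction (adjusted p = 0.0941). Without control replicate 2, which leaves the uneven array as the lone control, 6 of 10 passed, where 35.3% of all genes did.

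**Figure D3:**
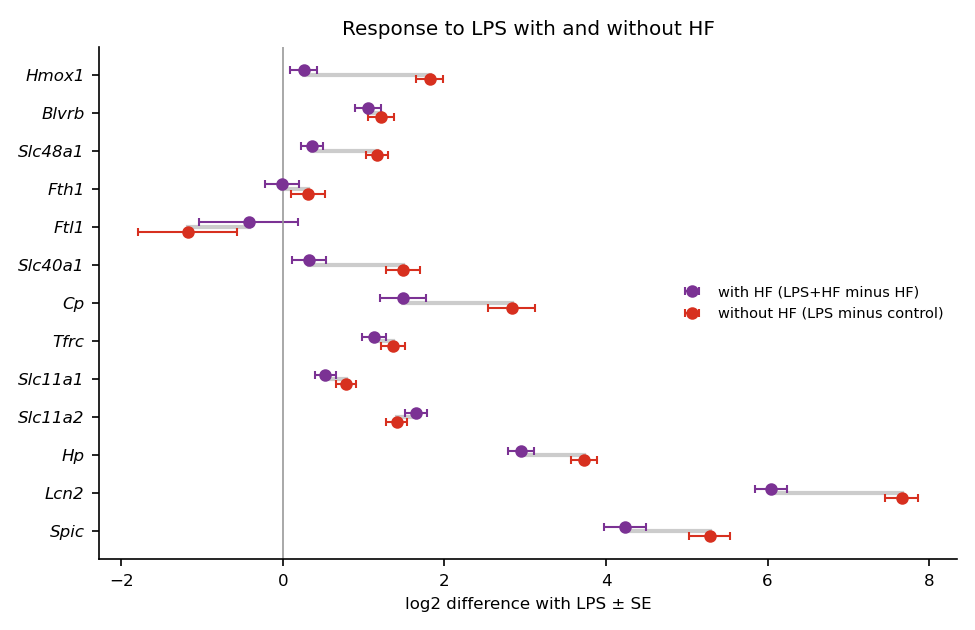
Log2 difference ± SE between cells with and without LPS, in the presence of HF (LPS+HF minus HF) and in its absence (LPS minus control), for the 10 genes and for Hp, Lcn2 and Spic. Hmox1 shows 0.26 with HF and 1.82 without it, and the brighter Slc11a2 probe, the only one of that gene drawn, shows 1.65 with HF and 1.41 without it.

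HF alone left the 10 genes with differences of -1.37 to 0.58 from control cells, none of which passed in limma. The widest was that of the brighter Ftl1 probe at -1.37 ± 0.61 (adjusted p = 0.279), which rests on control replicate 1. Hmox1 differed by -0.14 ± 0.17 (adjusted p = 0.625). Its sign turned positive under median scaling and under the normexp background correction with quantile normalization.

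**Figure D4:**
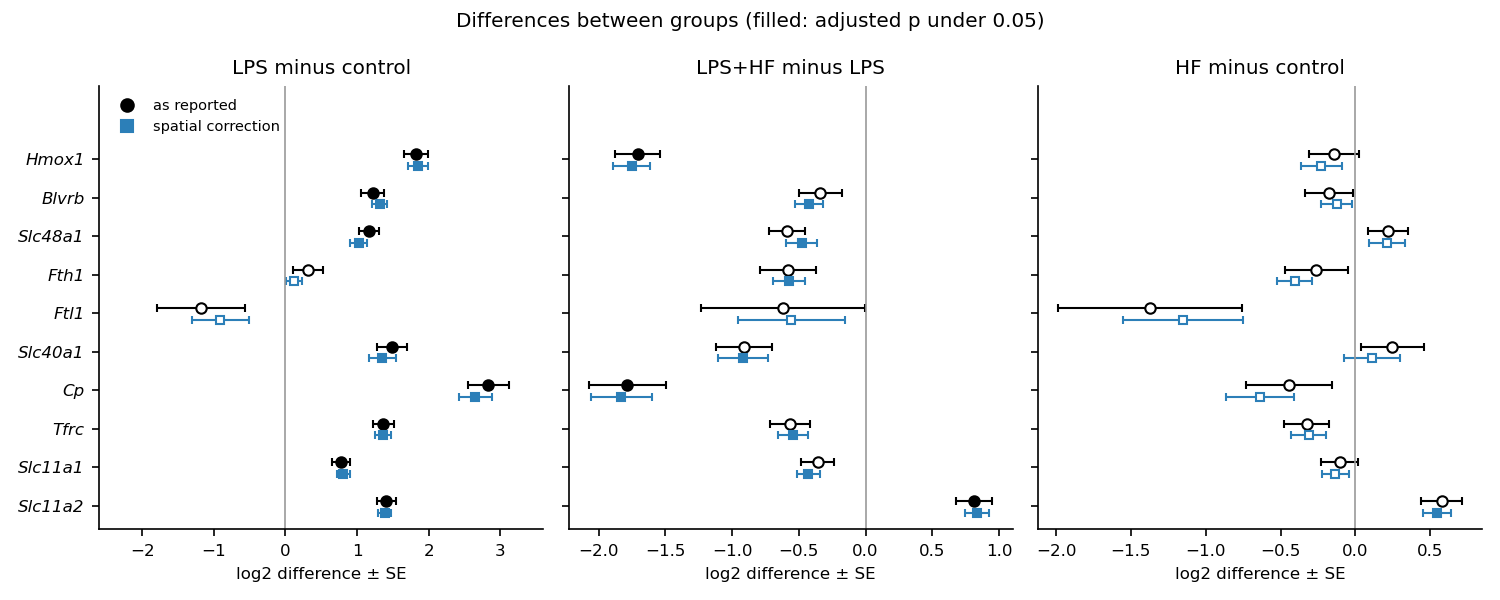
Log2 difference ± SE of the 10 genes in LPS minus control, LPS+HF minus LPS and HF minus control, from the reported fit (circles) and with a spatial correction of each array (squares), filled where the adjusted p was under 0.05. The reported fit fills 8, 3 and 0 circles in these panels, and the spatial correction fills 8, 9 and 1 squares.

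Of 60 further genes of haem and iron handling, 48 were tested and 45 of them were above background on all arrays. In LPS against control cells 4 were higher and 3 lower, a share near the 11.1% of all genes that passed, with a median of 0.10 over the 48 and -0.08 over all genes. The 3 with the largest rises were Lcn2, whose product binds bacterial siderophores, Spic, a transcription factor of haem-recycling macrophages in the mouse, and Hp, haptoglobin, which binds free haemoglobin. Lcn2 had levels of 5.47 and 5.07 in LPS+HF cells, 6.66 and 6.64 in LPS cells, -0.63 and -0.92 in HF cells, and -0.89 and -1.14 in control cells. It was 202-fold higher in LPS than in control cells (7.66 ± 0.20, adjusted p = 0.000126) and 2.60-fold lower in LPS+HF than in LPS cells (-1.38 ± 0.20, adjusted p = 0.0228). Spic was 38.9-fold higher in LPS than in control cells (5.28 ± 0.26, adjusted p = 0.000599) and 5.37-fold lower in LPS+HF than in LPS cells (-2.43 ± 0.26, adjusted p = 0.0115). Hp was 13.2-fold higher in LPS than in control cells (3.72 ± 0.16, adjusted p = 0.000436) and 2.12-fold lower in LPS+HF than in LPS cells (-1.09 ± 0.16, adjusted p = 0.0232).

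Those 3 were the only genes of the 48 to pass in LPS+HF against LPS cells, a count near the 6.14% of all genes that passed, and the only ones to pass, all as higher, in LPS+HF against HF cells (0.904% of all genes passed as higher) and against control cells (1.89%). Blvra, the main biliverdin reductase of adults, was 2.85-fold lower in LPS than in control cells (-1.51 ± 0.33, adjusted p = 0.0382), with levels of 3.59 and 3.65 in LPS cells, against 5.66 and 4.61 in control cells. Without control replicate 1 the difference was -0.99. Hif1a, which was higher, and Hfe, which was lower, also passed with LPS and are named after their values were seen. None of the 8 tested genes of haem synthesis passed in any of the 6 comparisons, in which 0.0534% to 11.1% of all genes passed, so 0 of 8 is near those shares.

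Among 13801 genes with a symbol, those whose 8 array values correlated most with Hmox1 were Insig2 (Pearson r = 0.996), Calr3 (0.993) and Psen2 (0.993). For Slc40a1 they were Arl14ep (0.996), Trp53inp2 (0.992) and Hif1a (0.986). For Tfrc they were Pilrb1 (0.993), Serp1 (0.992) and Pilrb2 (0.992). These r values describe 8 arrays that share a slide, and a pattern over 4 groups of 2 leaves many genes alike.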

How the data were processed

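RNA of 8 BV-2 samples was labelled with Cy3 and hybridised to one-colour Agilent arrays. Per the file headers, the deposited intensity values were background-subtracted and detrended by Agilent Feature Extraction 11.5.1.1. The deposited log2 series matrix was made by the authors and matched the 75th percentile shift followed by centring on each probe's median (r at least 0.999998 on every array). Here the log2 processed signal was averaged over a probe's spots that carried no outlier mark, and the array's 75th percentile was taken off. A probe was kept (30345 of 55681) if 1 group or more had both of its arrays well above background, and the brightest kept probe of a gene was used. Symbols came from RefSeq and Ensembl transcript names for 28026 probes (50.3%). limma 3.58.1 in R 4.3.3 was fitted over all 8 arrays (4 residual and 2.04 prior degrees of freedom), two-sided, with Benjamini-Hochberg adjustment over 22460 genes. The fit was tried on simulated data in which 200 genes were changed. For the spatial correction, the median deviation around each spot (31 rows by 15 columns) was removed from its array, and spots dimmed over 4-fold were masked. That deviation was measured from the mean of the arrays not marked for evaluation, over all groups. The correction left 20299 genes with a value on every array, and shares given with it are of those genes. The reported fit did not pair samples by replicate number (correlations between groups of deviations from the group means -0.08 to 0.25). Tables and plots used Python 3.11.15, numpy 2.4.6, pandas 2.3.3, scipy 1.17.1 and matplotlib 3.10.9. The number of arrays limits the precision. The 10 genes and all lists were chosen with earlier results of these data known. Named genes were the 10, Lcn2, up to 4 passed genes of the 60 further ones per comparison by size of difference, and the 3 genes most correlated with Hmox1, Slc40a1 and Tfrc. Scaling, background correction, dim-probe filter, probe choice, variance model, array weights, replicate block and left-out arrays were varied. A few genes of the lists are not reported here by name.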

Additional observations from a re-analysis of the deposited data

Results flagged for a closer look

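The response of Hmox1 to LPS differed between cells with and without HF by -1.56 on the log2 scale (limma, adjusted p = 0.143), and that of Lcn2 by -1.62 (adjusted p = 0.173). Each passed as an interaction only with the spatial correction among the fits over all 8 arrays, at -1.52 for Hmox1 (adjusted p = 0.0238) and -1.74 for Lcn2 (adjusted p = 0.0241). Without control replicate 2, which leaves the uneven array as the only control, Hmox1 gave -1.63 (adjusted p = 0.00767) and Lcn2 -1.49 (adjusted p = 0.0156); 35.3% of all genes passed there, and no fit that left out another single array passed for either gene. For Lcn2 the LPS response was 6.04 ± 0.20 with HF and 7.66 ± 0.20 without it. Groups of 2 arrays are too small for a search for single outlying arrays.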

How the results depend on the processing

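Some settings give the same fit for a comparison, so the alternative values counted here are not all separate. Among the comparisons that passed, 568 of 747 alternative values of a gene kept direction and call, 177 kept direction only and 2 turned sign. Those 2 were the second Slc11a2 probe in LPS+HF minus LPS, at -0.48 as measured and -0.46 with the spatial correction, where it passed as lower (adjusted p = 0.0226). Of 1327 alternative values of comparisons that did not pass, 1172 were the same, 110 passed and 45 turned sign. As reported, the number of the 10 genes that passed was 8 for LPS minus control, 3 for every comparison of LPS+HF cells with a single group, and 0 for HF minus control and for the interaction. In LPS minus control it was 2 with normexp and quantile normalization, 0 with array weights and 0 with only the arrays compared. In LPS+HF minus LPS it was 0 with normexp or median scaling, and 1 without a filter on dim probes or with the replicate block. It was 5 with probes above background on all arrays or with a trended, robust variance. It was 9 with array weights, only the arrays compared or the spatial correction, where 28.9% to 37% of all genes tested passed. For this comparison the fit without both marked arrays is the same as that of only the arrays compared, so it is not a separate alternative. In LPS+HF minus HF it was 0 with normexp or median scaling, 1 without a filter, with the replicate block or with only the arrays compared, and 5 with array weights or the spatial correction. In LPS+HF minus control it was 0 with normexp or only the arrays compared, 1 with median scaling, no filter, array weights or the replicate block, 5 without both marked arrays (3 higher and 2 lower, with 16.2% of all genes passing) and 8 with the spatial correction (6 higher and 2 lower, with 26%). The 2 lower genes were Fth1 and Ftl1, at -0.55 and -0.79 without both marked arrays and at -0.45 and -1.46 with the spatial correction. The spatial correction gave 1 in HF minus control and 1 for the interaction, where 11.6% and 3.51% of all genes passed. Leaving out each array in turn gave 0 to 10 for LPS minus control and 0 to 2 for HF minus control. It gave 0 to 8 in LPS+HF minus LPS, 0 to 5 in LPS+HF minus HF, 1 to 8 in LPS+HF minus control and 0 to 6 for the interaction. The top counts of 10, 2 and 6 came without control replicate 2, where 52.6%, 45.2% and 35.3% of all genes passed, and so did a count of 8 for LPS+HF minus control, where 50.4% passed. The labels do not say whether the replicate numbers pair the samples, and the meaning of the block's lost calls was not tested. The causes were not tested, beyond the fewer arrays or probes that an alternative holds.

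The other signs turned as follows, none with a call. Under median scaling, which moved the median of all genes in HF minus control to 0.32 (as reported, -0.07), HF minus control became 0.21 for Blvrb, 0.12 for Fth1, 0.24 for Hmox1, 0.074 for Hp, 0.28 for Slc11a1 and 0.059 for Tfrc, all below that shift, and Fth1 became 0.11 in LPS+HF minus HF and 0.23 in LPS+HF minus control. For LPS+HF minus control the median of all genes moved to 0.36 (as reported, -0.13), and in LPS minus control to 0.27 (as reported, -0.08). Scaling to the median of the kept probes, added after seeing the data, gave 0.00938 for Fth1 in LPS+HF minus HF. Quantile normalization gave Fth1 0.24 in HF minus control, 0.35 in LPS+HF minus HF and 0.59 in LPS+HF minus control, and Ftl1 -0.036 in the interaction. Normexp gave Fth1 0.21 in LPS+HF minus HF, 0.10 in LPS+HF minus control and 0.00473 in the interaction. It gave Ftl1 0.10 in HF minus control, 0.12 in LPS minus control, 0.022 in LPS+HF minus control and -0.203 in the interaction. In HF minus control it gave Hmox1 0.76, Slc40a1 -0.31 and Slc48a1 -0.10, and in LPS+HF minus control Slc40a1 -0.083. The second Ftl1 probe gave 0.70 in HF minus control, 1.06 in LPS minus control, 0.58 in LPS+HF minus control and -1.19 in the interaction. The second Slc11a2 probe gave -0.21 in HF minus control and -0.27 in the interaction (-0.57 with the spatial correction, added for single probes after seeing the data). The second Hmox1 probe gave -0.19 in LPS+HF minus control (-0.12 with that correction). The mean over a gene's probes gave -0.22 for Ftl1 and -0.014 for Slc11a2 in the interaction, and -0.037 for Hmox1 in LPS+HF minus control. Without both marked arrays, Blvrb was 0.021 in HF minus control, and Fth1 was 0.069 in LPS+HF minus HF and 0.037 in the interaction. Leaving out 1 array gave Fth1 -0.082 to 0.069 in LPS+HF minus HF, -0.54 to 0.018 in HF minus control and -0.55 to 0.012 in LPS+HF minus control, Hmox1 -0.069 to 0.30 in LPS+HF minus control, and Ftl1 in the interaction -0.25 to 1.75.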
